A study of Arabidopsis thaliana with 6 samples.

Results

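The Aux/IAA and GH3 genes are the classical early auxin-response genes of Arabidopsis thaliana. All 29 Aux/IAA loci and 7 GH3 loci (GH3.1 to GH3.6 and GH3.17) were taken by their locus identifiers, which gives 36 of the 32833 loci counted in each library. The rule itself uses no measured value, though the members were chosen with earlier results of these data known. RNA had been sequenced from inflorescence meristems of stems 15 cm tall, from which flower primordia had been taken off up to an early flower stage. Controls (3 libraries) came from a line carrying pCLV3>>erTurquoise, a turquoise fluorescent reporter that the promoter of the stem cell gene CLV3 drives. The other 3 libraries came from plants with that reporter and >>VGD1 as well, VGD1 being a pectin methylesterase, an enzyme that removes methyl groups from wall pectin. Both lines received dexamethasone, which activates the GR-LhG4 transcription factor behind both transgenes, at 30 µM in the protocol and 30 mM in the treatment label. Harvest is given as 48 hours after treatment in one place and 72 hours in another. Only stem cells are targeted by this promoter, while the libraries hold the whole dissected meristem, and separate plant batches for the replicates are not stated, so the tests rest on library-to-library spread, which may be technical.

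Auxin acts by removing repressors. Aux/IAA proteins bind auxin response factors (ARFs) at their target genes and recruit the corepressor TOPLESS, and auxin glues them to the F-box receptors TIR1 and AFB, after which they are degraded and the ARFs are freed. Many Aux/IAA genes and GH3 genes are themselves ARF targets: the first group rebuilds the repressors, and GH3 enzymes join auxin to amino acids and so take it out of action. In the shoot meristem auxin maxima mark the sites where new flowers form, at the flank of the stem cell domain.

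The ARF target hexamers TGTCTC and TGTCGG were looked for, on both strands, in the 250 bases before each annotated start, with no overlap between the hexamers. Sequences came from RefSeq's TAIR10.1, whose nuclear chromosomes are those of TAIR10. TGTCTC lay in 12 of the 36 windows (33.3%) and in 10.9% of the windows of all 27443 protein-coding genes, and TGTCGG in 6 of 36 (16.7%) and 4.16%. Either hexamer was present in 13 of 29 Aux/IAA windows and 3 of 7 GH3 windows, against 14.7% of all genes. Such a match is a string of letters, not a binding site shown by these data. The windows of 4 members are shown as those of genes described in detail below: IAA8, the member with the highest level, IAA19, with 3 copies of TGTCTC, GH3.2, the GH3 gene with the smallest p, and GH3.5, the GH3 gene with the highest level. All 4 lie on the plus strand, at chr2:9636096-9636345, chr3:5263751-5264000, chr4:17579368-17579617 and chr4:13653329-13653578 in TAIR10.1. They are written 5′ to 3′, with the hexamer or its reverse complement in capitals.
IAA8: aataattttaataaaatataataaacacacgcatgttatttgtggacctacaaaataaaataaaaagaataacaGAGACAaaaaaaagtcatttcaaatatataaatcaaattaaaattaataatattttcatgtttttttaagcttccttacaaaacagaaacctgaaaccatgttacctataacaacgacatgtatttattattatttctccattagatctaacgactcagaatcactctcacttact
IAA19: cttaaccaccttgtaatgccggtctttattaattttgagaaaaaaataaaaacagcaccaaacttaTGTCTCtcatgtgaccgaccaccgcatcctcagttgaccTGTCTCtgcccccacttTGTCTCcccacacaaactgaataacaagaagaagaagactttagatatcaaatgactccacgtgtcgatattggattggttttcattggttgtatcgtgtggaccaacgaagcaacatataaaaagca
GH3.2: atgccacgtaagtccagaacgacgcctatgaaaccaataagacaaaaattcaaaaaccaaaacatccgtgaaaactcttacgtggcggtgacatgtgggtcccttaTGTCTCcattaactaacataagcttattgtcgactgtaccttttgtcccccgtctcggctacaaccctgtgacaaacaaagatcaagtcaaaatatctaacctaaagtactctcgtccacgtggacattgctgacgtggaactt
GH3.5: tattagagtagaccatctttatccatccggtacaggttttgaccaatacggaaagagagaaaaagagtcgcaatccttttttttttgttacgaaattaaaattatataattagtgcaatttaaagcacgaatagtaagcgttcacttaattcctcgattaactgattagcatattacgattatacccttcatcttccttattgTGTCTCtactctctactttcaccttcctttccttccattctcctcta
Counted from the start, the hexamer begins at base -176 in IAA8, at -184, -145 and -128 in IAA19, at -144 in GH3.2 and at -47 in GH3.5. IAA9, IAA7 and GH3.6 had neither hexamer in this window.

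Depth and labels set limits on the comparison. Totals ranged from 6638772 counts (control replicate 3) to 24437872 counts, and the next lowest was 18432365. VGD1 stood at 11.4, 12.7 and 4.79 CPM (counts scaled to the depth of the library) in the controls and at 6.59, 7.91 and 7.11 CPM in the other group. The level at its locus was thus not higher in the libraries labelled as carrying its transgene, called the labelled libraries here (log2 fold change -0.57, edgeR adjusted p = 0.372). No source used here says whether reads of the transgene are counted at that locus. CLV3, the stem cell marker, had 0 counts in every control and 3, 8 and 11 in the labelled libraries. WUS, another meristem marker, stood at 4.3, 3.72 and 3.0 CPM in the controls and at 4.59, 1.51 and 2.91 CPM in the labelled libraries. The groups overlapped for WUS (log2 fold change -0.35, edgeR adjusted p = 0.738). STM, which keeps meristem cells undifferentiated, was present in all 6 libraries at 60.3 to 90.4 CPM, and markers of tapetum, vascular tissue and green tissue were above 0 in every library too. Of 4 meristem markers (STM, CLV1, WUS and KNAT1) 2 lay above a log2 fold change of 0 and 2 below. Their median was 0.06 and the smallest edgeR adjusted p was 0.427. From 77% to 80.9% of the counts between 1 and 20 were even in each library, so most reads appear to have been counted in pairs and a low count holds fewer independent fragments than its size.

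The meristem repertoire was led by IAA8 (AT2G22670) and IAA9 (AT5G65670). Per kb of exon, IAA8 had 236 ± 5.68 CPM (SD over the 6 libraries) and IAA9 had 171 ± 15.1 CPM, and together they made up 46.8% to 52.9% of the summed Aux/IAA level per kb in a library. IAA16 (AT3G04730) followed with 69.8 ± 5.27, IAA26 (AT3G16500) with 52.5 ± 6.73, IAA27 (AT4G29080) with 48.5 ± 4.83 and IAA12 (AT1G04550) with 38.8 ± 3.42 CPM per kb. IAA8, IAA9 and IAA16 are separated from each other by more than their spread, whereas IAA26 and IAA27 are not. At the other end IAA29 (AT4G32280), IAA34 (AT1G15050) and GH3.4 (AT1G59500) lay under 0.1 CPM per kb on average.

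**Figure D1:**
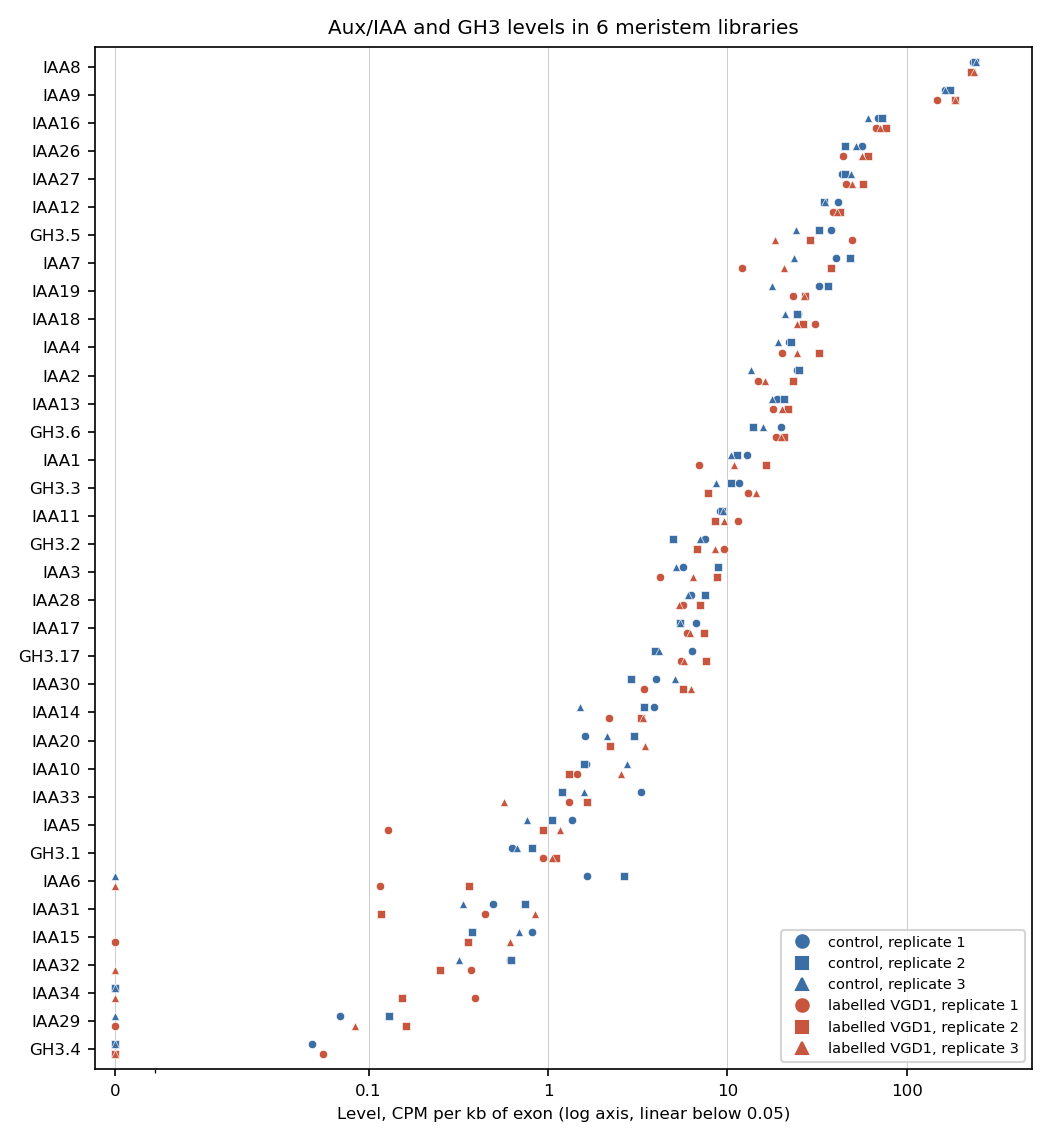
Level of each of the 36 members in CPM per kb of exon (log axis, linear below 0.05), ordered by the mean over 6 libraries. Each point is 1 library; colours give the group and shapes the replicate number. IAA8 and IAA9 stand above all others, and the groups overlap for every member except GH3.1.

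No Aux/IAA or GH3 gene passed the test between the groups. Of the 36 members 31 passed the filter on low counts, and 0 of these 31 had an adjusted p under 0.05 in edgeR's quasi-likelihood test, where 0.416% of all 19719 tested genes did (0.101% higher and 0.314% lower in the labelled libraries). At an unadjusted p under 0.05 the count was 0 of 31, against 13.6% of all tested genes. DESeq2, which called 2.18% of all genes, and limma-voom also called 0 members. Of the tested members 18 lay above 0 and 13 below, with a median log2 fold change of 0.05, beside 49.9% above 0 and a median of 0 over all genes.

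How far a difference was bounded depended on the gene. For 24 of the 31 members the 95% interval of the fold change lay within 2-fold in both directions, and for 12 it lay within 1.5-fold. Summed over the 29 genes, the Aux/IAA level was 1529 ± 71.5 CPM in control libraries and 1532 ± 128 CPM in labelled ones (SD, n = 3 each). The summed level of the 7 GH3 genes was 164 ± 28.0 and 185 ± 37.0 CPM. Both sums overlapped between the groups.

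**Figure D2:**
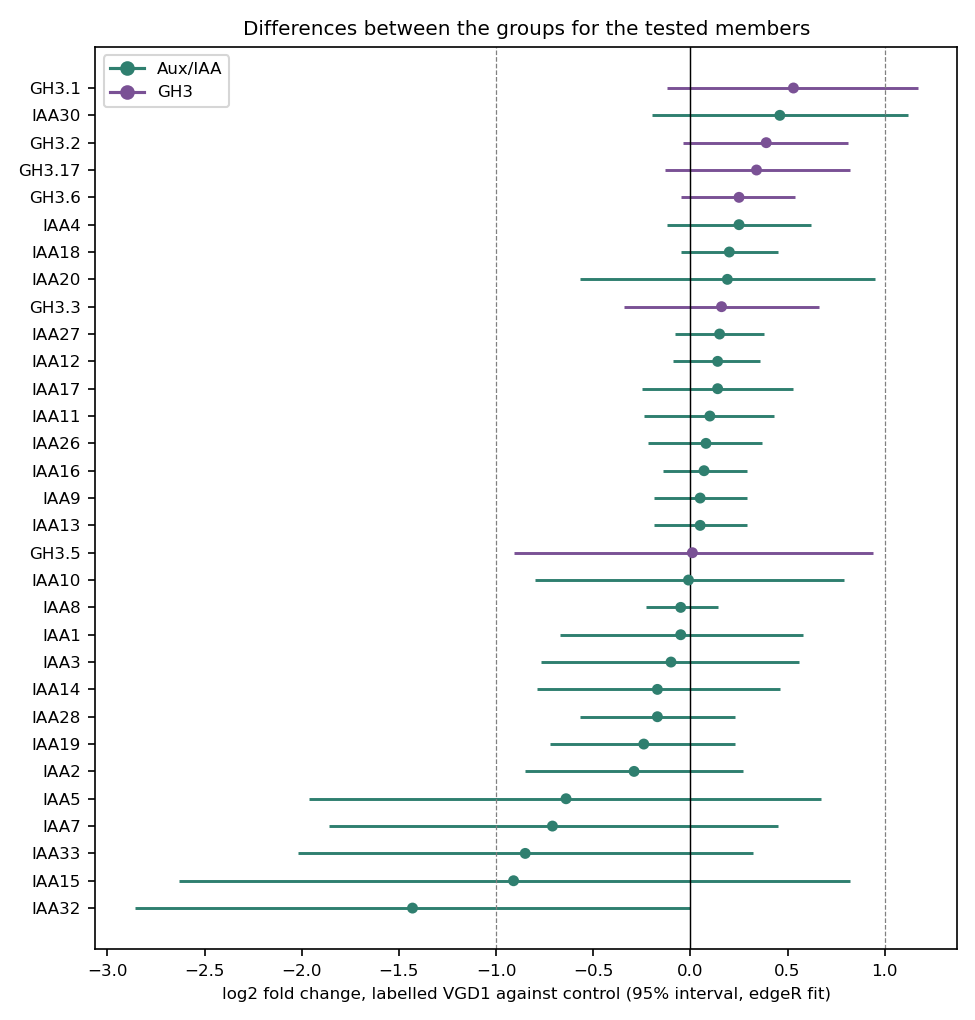
log2 fold change of the labelled libraries against the controls for the 31 tested members, with the 95% interval from the edgeR fit; dashed lines mark 2-fold. Intervals are narrow for the abundant IAA8, IAA9 and IAA16 and wide for IAA7, GH3.5 and the scarce members, and every interval reaches 0.

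Among the abundant repressors the groups were close. IAA8 stood at 484, 497 and 499 CPM in the controls and at 477, 469 and 489 CPM in the labelled libraries. These 6 values span 1.06-fold, the least of all members, and the groups overlap (log2 fold change -0.05, 95% interval -0.23 to 0.14, edgeR adjusted p = 0.870). IAA9, a relative of IAA8, read 349, 375 and 351 CPM against 317, 399 and 399 CPM, with replicate 1 of the labelled libraries the lowest of the 6. Its log2 fold change was 0.05 (interval -0.19 to 0.29). IAA27, also named PAP2 for its association with phytochrome, the red-light receptor, gave 62.6, 65.4 and 70.4 CPM against 65.6, 82.0 and 71.6 CPM, again with overlapping groups.

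IAA16 and IAA26 had log2 fold changes of 0.07 and 0.08, with intervals that included 0. IAA16, of the clade of IAA7 (AT3G23050), IAA14 (AT4G14550) and IAA17 (AT1G04250), read 141, 148 and 123 CPM in the controls and 137, 155 and 144 CPM in the labelled libraries. IAA26, also called PAP1, read 117, 94.0 and 108 CPM against 91.6, 127 and 117 CPM. The groups overlapped for both, and for IAA26 the labelled libraries held the lowest and the highest value. IAA18 (AT1G51950), the closest relative of IAA26 in coding sequence among the members (74.6% identical), was at 44.3, 43.8 and 37.5 CPM against 55.0, 47.1 and 43.6 CPM. One labelled library fell just below the 2 highest controls, and the log2 fold change was 0.20 (SE 0.11, edgeR adjusted p = 0.493).

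IAA12, known as BODENLOS, is the repressor that holds back the ARF MONOPTEROS (ARF5), a factor needed for flower initiation. Its level was 62.3, 52.1 and 52.6 CPM in the controls and 58.4, 64.3 and 61.6 CPM in the labelled libraries. Control replicate 1 fell inside the range of the labelled libraries, and the fold change was bounded between 0.942 and 1.28 (edgeR adjusted p = 0.614). IAA13 (AT2G33310), its closest relative (73.1% identical coding sequence), stood at 39.3 to 46.2 CPM in the controls and 39.9 to 48.7 CPM in the labelled libraries. IAA10 (AT1G04100) and IAA11 (AT4G28640) stood at 1.72 to 3.6 and 10.9 to 14.5 CPM over the 6 libraries.

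IAA7 varied most among the members with a mean of at least 5 CPM. Known as AXR2, it is a repressor whose stabilized mutant form makes plants auxin-resistant and dwarfed. It read 77.1, 92.2 and 45.2 CPM in the controls and 22.9, 72.5 and 39.6 CPM in the labelled libraries, a 4.03-fold span. The highest 3 values were control replicates 1 and 2 and replicate 2 of the labelled libraries, so each group held high and low libraries (log2 fold change -0.71, interval -1.86 to 0.45, edgeR adjusted p = 0.586).

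IAA2 (AT3G23030) and IAA19 (AT3G15540) are described because of their values. IAA2 is the gene next to IAA7 on chromosome 3, on the opposite strand and with no other protein-coding gene annotated between them. It gave 33.2, 34.3 and 18.3 CPM in the controls and 20.1, 31.6 and 22.0 CPM in the labelled libraries. The same 3 libraries were the high ones. IAA19, known as MASSUGU2 for its part in growth curvature of the hypocotyl, stood at 32.7, 36.9 and 18 CPM against 23.4, 27.5 and 27.0 CPM. IAA14, known as SOLITARY ROOT and the closest relative of IAA7 (76.2% identical coding sequence), stood at 7.39, 6.5 and 2.85 CPM against 4.14, 6.24 and 6.36 CPM. In IAA2, IAA14 and IAA19 alike control replicate 3 was the lowest library, and the groups overlapped.

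Markers of tissue outside the dome differed between libraries beside IAA7. As mean log2 deviations from the average of the 6 libraries, 6 vascular markers lay at 0.28, 0.50 and 0.08 in the controls and at -0.63, 0.06 and -0.28 in the labelled libraries. IAA7 lay at 0.55, 0.80 and -0.22 and at -1.19, 0.46 and -0.41 on the same scale, so replicate 1 of the labelled libraries was the lowest in both. The 5 green tissue markers lay at 0.41, 0.40 and -0.15 against -0.34, -0.08 and -0.24, and were also lowest in that library. The 6 tapetum markers ran otherwise, at 0.26, 0.65 and 0.20 against 0.30, -1.10 and -0.31, with replicate 2 of the labelled libraries the lowest. The summed level of the green tissue markers was 10160.4 to 14002 CPM in the controls and 8586 to 10614 CPM in the labelled libraries. That of the vascular markers was 164 to 216 and 99.9 to 151 CPM, with no marker at 0 counts in any library. None of these 6 vascular and 5 green tissue markers passed the test and none lay above 0 (median log2 fold changes -0.60 and -0.39). Groups did not overlap for 5 of the 6 vascular markers and 2 of the 5 green ones, where 9.02% of all tested genes lay apart in this direction. An unadjusted p under 0.05 was found for 5 and 3 of them in the edgeR test, where 13.6% of all genes had one, and the smallest adjusted p was 0.072. Of 6 tapetum markers 1 lay above 0, with a median of -0.72 and summed levels of 425 to 553 CPM against 143 to 381 CPM. Groups did not overlap for 3 of these 6, with the labelled libraries lower, beside the same 9.02% of all tested genes. In the edgeR test 2 of them had an unadjusted p under 0.05, beside the same 13.6%, and the smallest adjusted p was 0.214. The part of these tissues in the IAA7 values was not tested, and fewer cells of a type cannot be told apart from less RNA per cell.

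**Figure D3:**
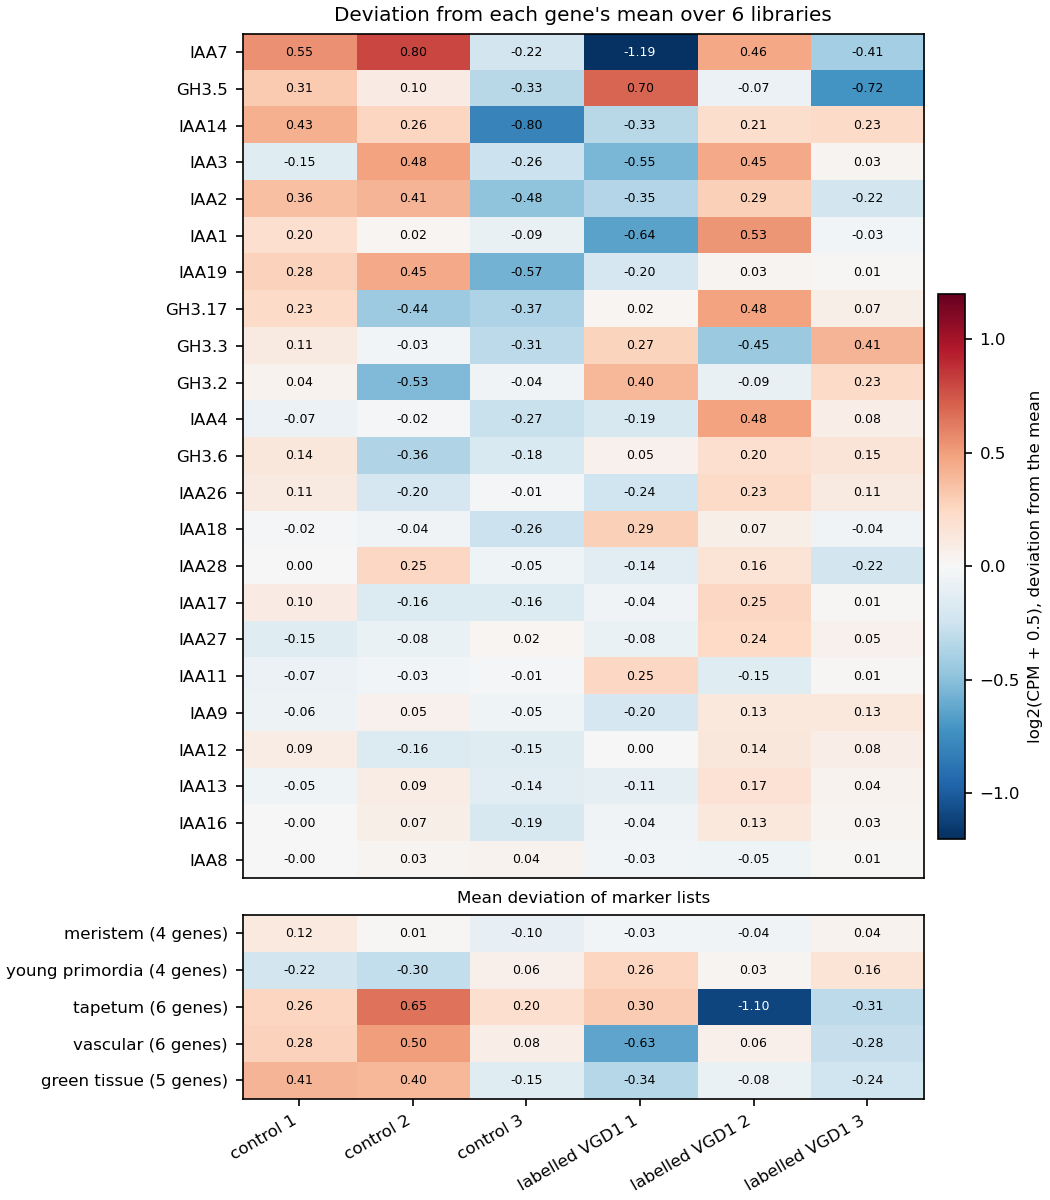
Deviation of log2(CPM + 0.5) from each gene's mean over 6 libraries, for the 23 members with a mean of at least 5 CPM (top, ordered by spread) and as a mean over each marker list (bottom). IAA7 runs from 0.80 in control replicate 2 to -1.19 in replicate 1 of the labelled libraries, while IAA8 stays within 0.05 of its mean.

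The groups also overlapped for the remaining repressors of intermediate level. IAA1 (AT4G14560) ranged from 6.59 to 15.5 CPM, with both extremes among the labelled libraries. IAA3 (AT1G04240), known as SHORT HYPOCOTYL 2 and studied for its role in root meristem size, ranged from 5.69 to 12.1 CPM, and IAA4 (AT5G43700) from 26.1 to 43.9 CPM. IAA17, known as AXR3 and the neighbour of IAA3 on chromosome 1, stood at 8.77, 7.20 and 7.19 CPM in the controls and at 7.89, 9.78 and 8.19 CPM in the labelled libraries. It spanned 1.36-fold over the 6 libraries, beside 2.12-fold for IAA3. IAA28 (AT5G25890), a repressor of lateral root formation, ranged from 7.43 to 10.5 CPM.

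IAA20 (AT2G46990), IAA30 (AT3G62100), IAA32 (AT2G01200), IAA33 (AT5G57420) and IAA34 belong to the noncanonical Aux/IAA proteins, which lack the degron that auxin and its receptors recognise. IAA30 was at 3.99, 2.90 and 5.09 CPM in the controls and at 3.39, 5.62 and 6.25 CPM in the labelled libraries, and IAA20 at 1.59, 2.98 and 2.1 CPM against 2.20, 2.19 and 3.45 CPM. For both genes the highest library was replicate 3 of the labelled libraries and the groups overlapped, with adjusted p-values of 0.554 and 0.869 in the edgeR test. IAA20 and IAA30 share 81.0% of their coding sequence, with a longest identical run of 52 bases, so reads of one could have been counted for the other or dropped.

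IAA32 had the smallest p of the tested members. It held 26, 28 and 4 counts in the controls and 14, 9 and 0 counts in the labelled libraries, which is 1.15, 1.16 and 0.599 CPM against 0.699, 0.468 and 0 CPM. Replicate 1 of the labelled libraries lay above control replicate 3, the shallowest library. The log2 fold change was -1.43 (SE 0.64). In edgeR's quasi-likelihood test it had an unadjusted p of 0.0504 (adjusted p = 0.370). Its log2 fold change was -2.15 without replicate 1 and -0.87 without replicate 3 of the labelled libraries, and -2.30 in limma-voom. Replicate 1 was the only labelled library in which IAA32 reached the filter level, as it did in every control. The filter asks for 3 libraries, so the controls alone were enough to admit IAA32 to the main fit. In the main fit and in the fit without that replicate, IAA32 thus passed the filter through the group where it was high. Over 12 alternatives its adjusted p ran from 0.267 to 0.758, and 3 of them had an unadjusted p under 0.05. In the main edgeR fit 13.6% of all tested genes had such a p. IAA33 stood at 2.52, 0.910 and 1.2 CPM against 0.998, 1.25 and 0.431 CPM, also with overlapping groups (edgeR adjusted p = 0.531). IAA34 had 0 counts in all 3 controls and 8, 3 and 0 in the labelled libraries, was under the filter and overlaps another gene on its own strand.

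IAA6 (AT1G52830), a close relative of IAA19 and likewise under the filter, is named because of its values. It had 32, 55 and 0 counts in the controls and 2, 6 and 0 counts in the labelled libraries, which is 1.42, 2.28 and 0 CPM against 0.0998, 0.312 and 0 CPM. Control replicates 1 and 2 stood above the other 4 libraries, and control replicate 3 did not share their level. A count of 0 in control replicate 3 allows up to 0.449 CPM if each count is independent, and more where reads are counted in pairs. Without the filter on low counts its edgeR p was 0.00107, or 0.0984 after adjustment, where 0.546% of genes were called. Control replicates 1 and 2 were the only libraries in which IAA6 reached the filter level, so without control replicate 3 it passed the filter through the group where it was high. In that fit IAA6 became the 1 called member (edgeR adjusted p = 0.0463, log2 fold change -3.69, SE 0.71), where 0.942% of genes were called. In the 5 fits that could include IAA6 its adjusted p ran from 0.0463 to 0.261. The fits that left out a labelled library also admitted IAA6 only through control replicates 1 and 2.

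The other scarce repressors were close to the limit of detection. IAA5 (AT1G15580), IAA15 (AT1G80390) and IAA31 (AT3G17600) stood at 0.0998 to 1.06, 0 to 0.708 and 0.104 to 0.754 CPM over the 6 libraries, and IAA29 had at most 4 counts. IAA31 and IAA29 were under the filter. IAA5 and IAA15 passed it with 5 and 3 libraries at its level, and their log2 fold changes of -0.64 and -0.91 had intervals from -1.96 to 0.67 and from -2.63 to 0.82, which include falls of over 2-fold.

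The GH3 genes that were tested all had estimates above 0, and none passed the test. GH3.6 (AT5G54510), known as DFL1 for its dwarfing effect in light, stood at 46.1, 32.4 and 36.9 CPM in the controls and at 43.3, 48.0 and 46.2 CPM in the labelled libraries. Control replicate 1 lay within the labelled range (log2 fold change 0.25, SE 0.13, edgeR adjusted p = 0.457). GH3.2 (AT4G37390), also called YDK1, stood at 16.2, 10.8 and 15.3 CPM against 20.9, 14.8 and 18.5 CPM. Control replicate 1 and control replicate 3 lay above the lowest labelled library (log2 fold change 0.39, SE 0.19, edgeR adjusted p = 0.418).

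GH3.1 (AT2G14960) was the single member whose groups did not overlap, among 31 tested members, while 17.2% of all tested genes had groups that did not overlap (8.18% with the labelled libraries higher, 9.02% with them lower). Its level was low, at 1.42, 1.82 and 1.5 CPM in the controls and 2.1, 2.50 and 2.37 CPM in the labelled libraries. The controls rested on 32, 44 and 10 counts. A log2 fold change of 0.53 (interval -0.12 to 1.17) had an edgeR adjusted p of 0.477.

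GH3.17 (AT1G28130), which acts on auxin with glutamate, stood at 17.5, 10.8 and 11.4 CPM in the controls and at 15.1, 20.9 and 15.6 CPM in the labelled libraries. Control replicate 1 exceeded 2 of the labelled libraries (edgeR adjusted p = 0.532). GH3.3 (AT2G23170), a strongly auxin-inducible member, read 24.7, 22.3 and 18.3 CPM against 27.7, 16.6 and 30.6 CPM. Both its lowest and its highest value came from labelled libraries (log2 fold change 0.16, interval -0.34 to 0.66).

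GH3.5 (AT4G27260), called WES1, is the most highly expressed GH3 member and can also act on salicylic acid. It was at 89.4, 77.0 and 57.2 CPM in the controls and at 117, 68.3 and 43.5 CPM in the labelled libraries, so the labelled libraries held both the highest and the lowest value. Its estimate of 0.01 (interval -0.91 to 0.94) reached -0.44 without replicate 1 and 0.30 without replicate 3 of the labelled libraries. GH3.5 and GH3.6 made up 56.3% to 70.1% of the summed GH3 level per kb. The ratio of GH3.5 to GH3.6 per kb ran from 1.53 to 2.34 in the controls and from 0.927 to 2.67 in the labelled libraries.

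GH3.4 had 2, 0 and 0 counts in each group and was under the filter. Its coding sequence is 90.0% identical to that of GH3.2, with a longest identical run of 65 bases, and GH3.5 and GH3.6 share 84.1% with a run of 42 bases. The sources used here do not say how reads of such copies were assigned. With 6 of 6 tested GH3 members above 0 the median log2 fold change was 0.30, beside a median of 0 over all tested genes. The count was 5 of 6 without control replicate 3 or without replicate 1 or 3 of the labelled libraries, in limma-voom and with the replicate number as a block. Markers of young flower primordia, which are also sites of auxin response, lay above 0 in 4 of 4 cases, with a median of 0.27 and summed levels of 299 to 365 CPM in control libraries against 348 to 410.1 CPM in labelled ones. Their part in the GH3 values was not tested.

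The 4 other GH3 enzymes listed here had estimates below 0, with no call in edgeR and 1 in DESeq2. They were taken by a GH3 number among their names in the annotation, so the list may not hold the rest of the family. DFL2, a light-related member, stood at 52.0, 59.0 and 68.9 CPM in the controls and at 40.0, 46.3 and 43.1 CPM in the labelled libraries. All 3 labelled libraries were below all 3 controls (log2 fold change -0.46, SE 0.12, edgeR adjusted p = 0.141, DESeq2 adjusted p = 0.0438). The share of all tested genes lying apart in this direction was 9.02%, and DESeq2 called 2.18% of them. JAR1, which joins jasmonate to isoleucine, read 53.1, 51.1 and 41.4 CPM against 43.5, 35.4 and 39.5 CPM (edgeR adjusted p = 0.282). GH3.9 and PBS3, a GH3 enzyme of salicylic acid synthesis, had log2 fold changes of -0.44 and -0.23. The median of these 4 genes was -0.38.

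The receptors and corepressors that act with Aux/IAA proteins had small estimates above 0. AFB2 stood at 41.6, 44.1 and 41.5 CPM in the controls and at 59.4, 50.3 and 51.2 CPM in the labelled libraries. Groups did not overlap for AFB2 (log2 fold change 0.34, interval 0.12 to 0.55, edgeR adjusted p = 0.191) or for AFB5 (0.20, edgeR adjusted p = 0.334), and 8.18% of all tested genes lay apart in this direction. TIR1, the first auxin receptor described, stood at 149.9, 141 and 135 CPM against 177, 159 and 149 CPM, with 1 control inside the labelled range. None of the 6 receptor genes passed the test, and all 6 lay above 0 with a median of 0.19, where 49.9% of all genes lay above 0.

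TPL, the gene for TOPLESS, stood at 257, 253 and 262 CPM in the controls and at 275, 307 and 291 CPM in the labelled libraries. Groups did not overlap for TPL and TPR4, with log2 fold changes of 0.18 and 0.20 and edgeR adjusted p-values of 0.391 and 0.325, beside the same 8.18% of all tested genes. Of 5 corepressor genes 0 passed the test, 5 lay above 0 (49.9% of all genes did) and the median was 0.17. For all receptors and corepressors the 95% intervals stayed within 1.5-fold.

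Activator ARFs, whose activity the Aux/IAA proteins limit, were not called either. ARF5, MONOPTEROS, stood at 142, 142 and 169.9 CPM in the controls and at 188, 151 and 172 CPM in the labelled libraries, with overlapping groups (edgeR adjusted p = 0.527). ARF6 and ARF8 had log2 fold changes of 0.18 and 0.15, and ARF7 and ARF19 of -0.02 and -0.04. Of 7 genes for auxin inactivation and release 4 were tested and 0 passed, IAR3, an amidohydrolase that frees auxin from alanine, standing at 39.6 to 48.6 CPM over the 6 libraries.

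SAUR genes, a large family that includes many further early auxin-response genes, were taken by the word in the annotation. Of 80 loci 44 were tested and 0 passed, with 14 above 0 (31.8%), 30 below and a median log2 fold change of -0.31. Over all tested genes 49.9% lay above 0. The smallest p belonged to AT5G53590, annotated with this family, with a mean of 14.2 ± 4.03 CPM over the controls and of 9.14 ± 0.799 CPM over the labelled libraries (SD, n = 3 each) and overlapping groups (edgeR adjusted p = 0.166). SAUR23 and AT2G16580 had log2 fold changes of -1.44 and 0.75. SAUR estimates thus lay on both sides of 0, more of them below. In the edgeR test 6 of the 44 had an unadjusted p under 0.05, a share close to the 13.6% of all tested genes.

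**Figure D4:**
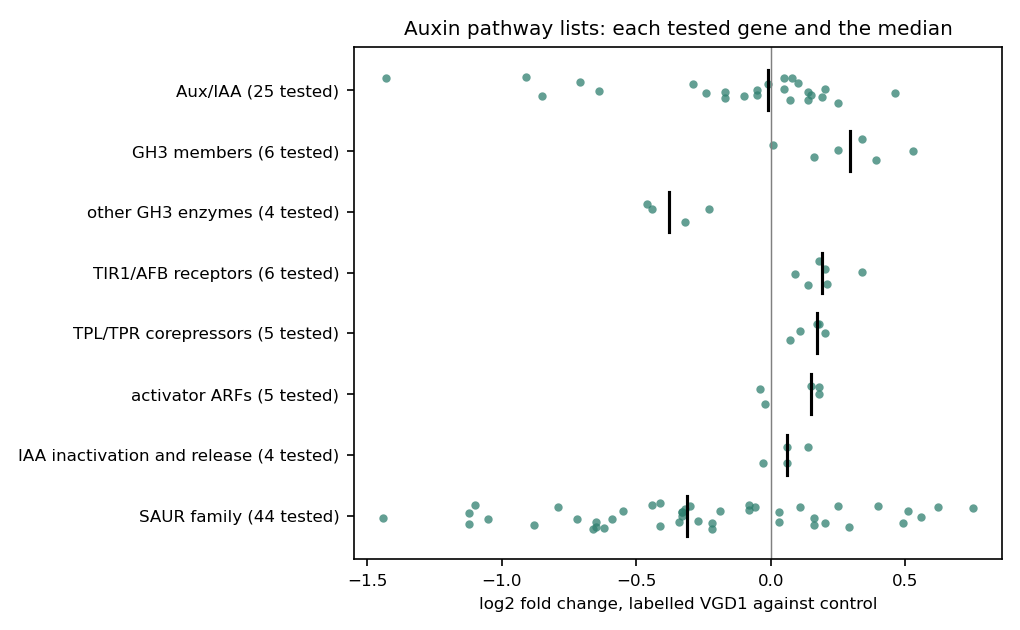
log2 fold change of every tested gene in each auxin pathway list (points) with the median of the list (black line). The tested GH3 members, receptors and corepressors lie above 0 and the 4 other GH3 enzymes that were listed lie below it. Aux/IAA and SAUR genes lie on both sides, with more SAUR genes below 0 than above. None of these genes was called by edgeR, and DESeq2 called DFL2.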

How the data were processed

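RNA-seq libraries of 6 meristem samples were analysed. The authors deposited whole-number counts per gene, 1 table per library over 32833 loci. Per the file headers, RNA STAR aligned the reads. The submitters' processing notes name TAIR10 and DESeq2 but no role for either. No source used here gives the counting tool, strand setting, read length or annotation, so reads of overlapping genes on opposite strands (8 members: IAA3, IAA5, IAA9, IAA10, IAA11, IAA13, IAA27, IAA32) and of near-identical copies may be mixed or dropped. Sample titles gave each library its group and number.

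The whole table was fitted with edgeR 4.0.16 in R 4.3.3: TMM factors, filterByExpr (minimum count 10, minimum total 15, which is 0.516 CPM at the median total in at least 3 libraries), glmQLFit with robust estimation, and a two-sided quasi-likelihood test. P-values were adjusted by Benjamini-Hochberg over 19719 genes, at 0.05. Of the 31 tested members, 27 reached the filter level in all 6 libraries. CPM carry the TMM factors, and CPM per kb divides by the union of annotated exons. Standard errors and 95% intervals came from the F statistic and its degrees of freedom. A count of 0 allows up to 3 counts (0.124 to 0.449 CPM per library), counting error only and with each count independent. Reads counted in pairs would make these limits higher. Names came from RefSeq's TAIR10.1 annotation (32548 loci matched, all 36 members). Coding identity came from global alignments of the longest coding sequence with Biopython 1.88. The fit was checked on counts simulated from its own dispersions, which lack the paired counting seen in the real libraries.

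Named genes were the members with non-overlapping groups, the 8 with the smallest p, the 5 highest per kb, a preset list, and up to 3 genes per pathway list. Members and lists were chosen with earlier results of these data known. Alternatives were limma-voom (limma 3.58.1), DESeq2 1.42.0, RLE factors, unscaled library totals, a filter at 1 CPM in 3 libraries or none, a replicate block, and leaving out each library. Halved counts were added after seeing the data, because most low counts were even.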

Additional observations from a re-analysis of the deposited data

How the results depend on the processing

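The absence of calls among the members held with RLE factors, library totals, no filter, the 1 CPM filter, DESeq2, limma-voom, the replicate block and halved counts (0 called in each). Leaving out 1 library gave 0 to 1 called members, the 1 being IAA6 without control replicate 3. Called pathway genes were 0 in every alternative except DESeq2, which called 1, DFL2. Over all genes 82 were called, but 139 without the filter, 430 with DESeq2, 194 with the replicate block, and 4 to 202 when 1 library was left out. The cause was not tested. Members above 0 numbered 15 to 20. Of 31 tested members 22 kept their sign, or came to 0 at 2 decimals, in every alternative that fitted them. There were 14 alternatives, of which 12 fitted IAA5, IAA15 and IAA32. GH3.5 became -0.10 in limma-voom and -0.03 with the replicate block, and IAA10 became 0.03 with library totals. When 1 library was left out, log2 fold changes ran from -0.01 to 0.20 for IAA26, -0.44 to 0.30 for GH3.5, -0.39 to 0.22 for IAA1, -0.01 to 0.40 for GH3.3, -0.02 to 0.20 for IAA11, -0.37 to 0.22 for IAA3, -0.32 to 0.04 for IAA14, -0.08 to 0.59 for IAA20 and -0.36 to 0.18 for IAA10. Whether replicate numbers pair the samples could not be decided with 3 libraries per group. Same-numbered libraries had residual correlations of 0.0134, 0.0446 and 0.116, and 3 of 6 libraries correlated best with their own number. Control replicate 3, with 6638772 counts, limits what can be seen for members under 1 CPM.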
